A study of Mus musculus with 4 samples.

Results

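The genes of the cytosolic ribosomal proteins were followed in sorted liver myeloid cells of mice with and without an intact IL-10 receptor gene in their LysM-expressing cells. The members were the protein-coding rows of the count table whose mouse symbol was Rpl or Rps followed by digits, with an optional a, l, x or y, together with Rplp0, Rplp1, Rplp2 and Rpsa; the S6 kinases, whose symbols begin with Rps6k, were not members. This gave 84 genes out of 55487 rows, 52 of the large and 32 of the small ribosomal subunit. Symbols and gene types came from GENCODE M21 (GRCm38). The rule thus takes members by name and not by any measured value, although the set was chosen with earlier results of these data known.

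Messenger RNA with a poly(A) tail was sequenced from liver cells sorted as CD45+ CD3- CD11c- CD11b+, a gate that takes in monocytes, macrophages and neutrophils. There were 2 libraries of LysM-Cre IL10R wt/wt mice, which carry the Cre recombinase and an unmodified receptor gene, and 2 of LysM-Cre IL10R fl/fl mice, which carry the same Cre and a receptor gene flanked by loxP sites on both alleles. Cre was therefore present in both groups, and its LysM promoter is active in macrophages and granulocytes and only in a part of the monocytes. The labels used here give no age, sex, tumour or treatment for these 4 libraries, and do not say whether each library came from 1 mouse or from a pool, so the p-values below measure the spread between libraries, which may be technical in part. The comparison addresses how the transcriptome of liver myeloid cells differs when IL-10 signalling in these cells is lost.

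The libraries held 22694136 and 26441014 counts (wt/wt 1 and 2) and 17750343 and 17154042 counts (fl/fl 1 and 2). Il10ra, which encodes the ligand-binding chain of the IL-10 receptor and is read here as the floxed gene because the labels name no chain, stood at 1111 and 993 CPM in wt/wt, while the fl/fl libraries had 69.3 and 14.8 CPM (a log2 difference of −4.64 and an adjusted p of 0.0193 by edgeR's quasi-likelihood test). CPM are counts scaled by library size with the TMM method, and from here on they are given for wt/wt 1 and 2 against fl/fl 1 and 2. Of the gate's genes, Ptprc (CD45) lay between 1095 and 1580 CPM and Itgam (CD11b) between 368 and 501 CPM, while Cd3e was at 0 in 3 libraries and at 0.0737 CPM in wt/wt 2. Itgax (CD11c) was still at 158 and 134 against 24.6 and 47.1 CPM. The libraries differed in other ways too: Xist, the RNA of the inactive X chromosome, was counted only in fl/fl 2 (4298 counts), and the summed level of 12 neutrophil markers was 3303 and 4129 CPM in wt/wt against 40070 and 17959 CPM in fl/fl. In such bulk libraries more cells of a type and more RNA per cell cannot be told apart.

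Cytosolic ribosomal proteins assemble with ribosomal RNA into the small subunit, which decodes the messenger RNA, and the large subunit, which forms the peptide bond. Their genes are among the most highly transcribed of any cell, and the proteins are made in equal numbers, since nearly all are needed once in each ribosome. Most of their mRNAs begin with a C followed by a run of pyrimidines, the terminal oligopyrimidine (TOP) motif, through which the kinase mTORC1 and the RNA-binding protein LARP1 control translation. Such control acts on translation and need not alter the amount of mRNA, which is what these libraries measure. In macrophages, IL-10 is known to restrain mTORC1 activity and to activate STAT3.

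The starts of the mRNAs are shown because the TOP motif is the feature by which translation of these mRNAs is known to be controlled. In the RefSeq promoter windows (GRCm38.p6, 250 bases before and 50 after each listed start), 64 of the 84 members were found, with 76 starts. A C followed by 4 pyrimidines stood exactly at the listed start in 13 of the 64 members (20.3%), against 2.51% of all 32851 promoters. On the opposite strand the same pattern was found in 2 members (3.12%), against 3.38% of all promoters. Within 10 bases of the listed start the pattern was present in 39 members (60.9%) against 30.7% of all promoters. A member was counted if any of its listed starts matched, while the share of all promoters is per start. Over the 76 starts of the members the 3 shares were 17.1%, 2.63% and 53.9%. Each line below begins 10 bases before the listed start, reads in the direction of transcription, and has the C and the pyrimidines that follow it at the start in capitals. The lines hold long runs of either subunit, the short one of the stalk gene Rplp2, and 3 paralogs that lack the pattern exactly at the listed start. In Rps27l and Rpl22l1 it begins within 10 bases after that start, and a further listed start of Rps27l, not shown, lacked it too. Lacking it there is not particular to paralogs: 51 of the 64 matched members did, among them the core genes Rpsa, Rps9 and Rplp0.
Rpl15 (chr14:18270972-18270996, minus strand): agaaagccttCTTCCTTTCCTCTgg
Rpl35 (chr2:39005117-39005141, minus strand): ccgccctttcCTCTTTCTCTCgaac
Rpl28 (chr7:4792955-4792979, plus strand): tctcgtgtctCTCTTTCCgtctccg
Rpl38 (chr11:114668570-114668594, plus strand): aagcctcgttCTTTCCCCgttctct
Rplp2 (chr7:141447641-141447665, plus strand): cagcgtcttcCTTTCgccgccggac
Rps10 (chr17:27635230-27635254, minus strand): gcgcacgcccCTTCCTTTCCagcct
Rps6 (chr4:86857353-86857377, minus strand): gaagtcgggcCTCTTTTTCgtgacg
Rps27 (chr3:90213634-90213658, minus strand): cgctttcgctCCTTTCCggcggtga
Rps27l (chr9:66946076-66946100, plus strand): cctccccgccgcctctatcccggaa
Rpl22l1 (chr3:28805498-28805522, plus strand): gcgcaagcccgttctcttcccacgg
Rpl7l1 (chr17:46782642-46782666, minus strand): gctgcgcaagcgcagtagctgaagc

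Among other motifs searched on both strands of the 300-base windows, CCGGAAG, the core bound by ETS-family factors, was in 26 of 64 members (40.6%) and in 8.86% of all promoters. The motif ATGGCGGC, the core of the YY1 site, was in 4 members (6.25%) against 2.24%, and GGGCGG, the GC box, in 40 members (62.5%) against 35.7%. TATAAA was in 7 members (10.9%) against 13.6% of all promoters. Over the 76 starts of the members the shares were 35.5% for CCGGAAG, 6.58% for ATGGCGGC, 60.5% for GGGCGG and 9.21% for TATAAA. The 25 bases around CCGGAAG are given for the member with the highest small subunit fold change, Rpsa, for the one nearest to 0, Rps7, and for Rpl41, the highest core gene of the large subunit without an overlapping gene model; the motif is in capitals and each line is read on the strand that carries it.
Rpsa (chr9:120127569-120127593, minus strand, 188 bases before the start): gaccccaggCCGGAAGtagctgggg
Rps7 (chr12:28635952-28635976, plus strand, 14 bases before the start): gggtggaaaCCGGAAGctcttctga
Rpl41 (chr10:128549209-128549233, minus strand, 56 bases before the start): gtaaggcagCCGGAAGtcgctgtct
These 3 genes were picked by their fold changes and stand only as examples. A match is a stretch of letters and says nothing of which factor is bound in these cells.

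Ribosomal protein genes together took 5.51% and 5.04% of all counts in the wt/wt libraries and 5.86% and 6.28% in the fl/fl libraries. Both fl/fl libraries were thus above both wt/wt libraries, with means of 6.07% ± 0.303 (SD, n = 2) and 5.28% ± 0.332 (SD, n = 2). Large subunit genes held 2.95% and 2.77% of wt/wt counts against 3.11% and 3.30% of fl/fl counts, a difference in means of 0.345 percentage points. Small subunit genes held 2.56% and 2.28% against 2.74% and 2.99%, a difference of 0.447 percentage points. The libraries of one genotype differed by 0.469 points in wt/wt and 0.428 points in fl/fl for both subunits together, against 0.792 points between the genotype means. The widest 95% Wilson interval of such a share was 0.0230 points and covers counting error only. These shares carry no test, since 2 libraries against 2 cannot give a two-sided exact permutation p below 0.333. The counts of large over small subunit genes were 1.15 and 1.21 against 1.13 and 1.10.

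**Figure D1:**
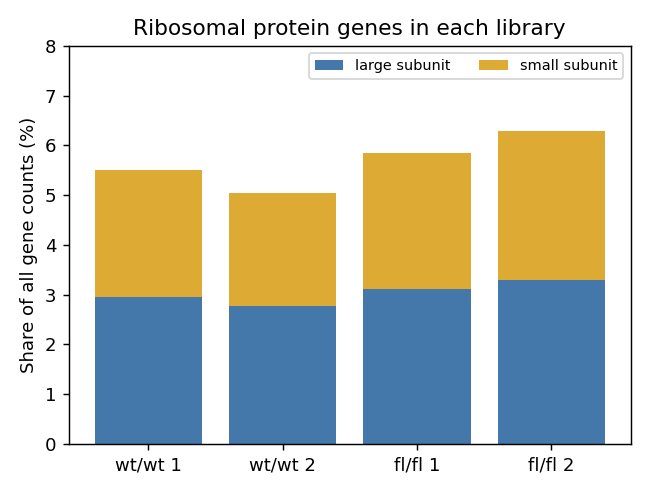
Share of all gene counts (%, vertical axis from 0) taken by large and small subunit genes in each of the 4 libraries, stacked. The bars reach 5.51% and 5.04% against 5.86% and 6.28%, and the large subunit part is the larger in every library.

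None of the 82 members that passed the low-count filter (50 large, 32 small) changed past the threshold, an adjusted p under 0.05 by edgeR's quasi-likelihood test, in either direction. Over all 13496 tested genes 5.85% were called, 2.69% higher and 3.16% lower in fl/fl. At an unadjusted p under 0.05, 7 members were higher (2 large, 5 small) and 0 lower, where 11.8% of all tested genes were higher and 10.7% lower. DESeq2 called 1 member, Rpsa, and 5.81% of all tested genes as higher and 6.18% as lower. The 2 members that were not tested were paralogs: Rpl10l, a copy of Rpl10 known from testis, with 0 counts in every library, which allows up to 0.135, 0.111, 0.175 and 0.171 CPM in wt/wt 1, wt/wt 2, fl/fl 1 and fl/fl 2, and Rpl39l, likewise known from testis, with 6, 0, 7 and 9 counts.

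The members lay close together, slightly above 0. The median log2 fold change, fl/fl over wt/wt, was 0.17 in the large subunit (middle range 0.11 to 0.27) and 0.19 in the small subunit (0.14 to 0.30), which are folds of 1.13 and 1.14. Over all tested genes the median was 0.02 with a middle range of −0.34 to 0.35, and over 1927 other genes above 100 CPM it was 0.04. The fold change was above 0 in 74 of 82 members, where 51.9% of all tested genes were above 0. Both fl/fl libraries were above both wt/wt libraries in 27 large subunit genes (54.0%) and 16 of 32 small subunit genes, against 28.1% of all tested genes. Both fl/fl libraries were below both wt/wt libraries in 0 members, against 26.3% of all tested genes. In the other 39 members the genotypes overlapped. The medians depended on the wt/wt libraries: without wt/wt 2 they were 0.11 (large) and 0.10 (small), and without wt/wt 1 they were 0.25 and 0.30.

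The precision was high enough to bound most members. The median standard error of a member's log2 fold change was 0.17 in the large and 0.18 in the small subunit, against 0.26 over all tested genes. In 73 of 82 members the whole 95% interval lay within a 2-fold change in either direction. The 9 members whose interval reached 2-fold were Rpl24, Rpl3l, Rpl35, Rpl41, Rpl13a, Rpl36al, Rps10, Rps28 and Rps27l. Many smaller changes could not be told from none by this test. Counts were simulated with these libraries' means and sizes over 13496 genes, with 50 genes changed at each size. The test recovered 4% of genes changed by 0.5 on the log2 scale, 56% of those changed by 1 and 100% of those changed by 2. The changed genes were drawn only from those at or above the median level, so these rates do not describe genes with few counts. They were also not drawn from the members, so the rates are not those of the members.

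**Figure D2:**
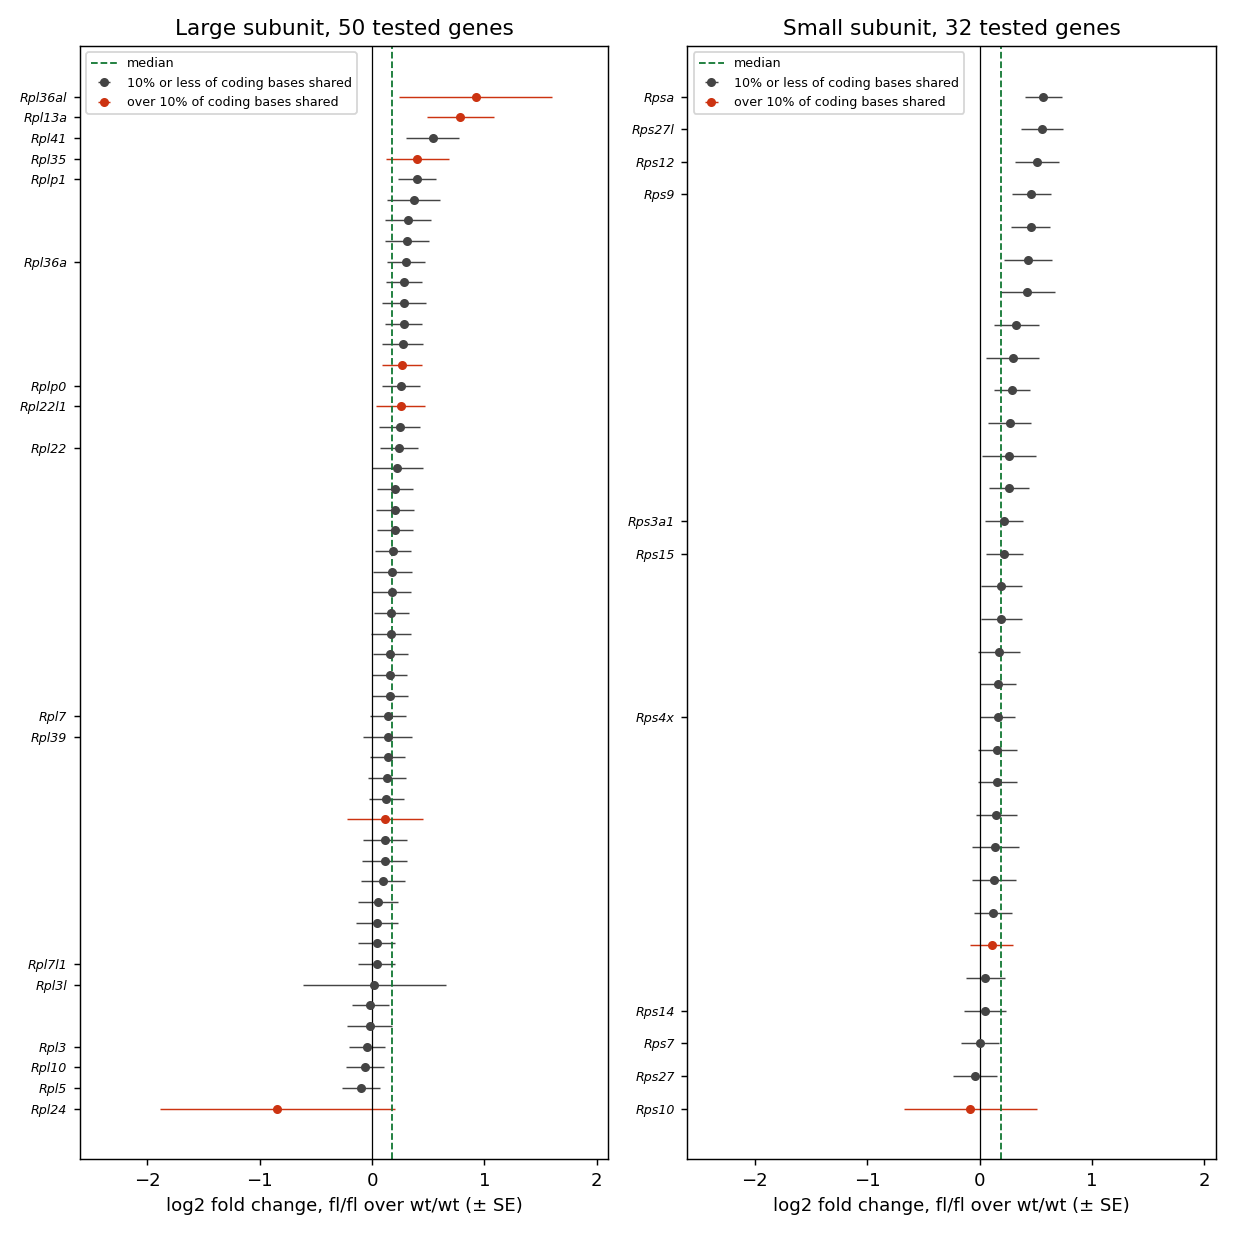
Log2 fold change of each tested member, fl/fl over wt/wt, with its standard error as the bar (n = 2 libraries a genotype), for 50 large subunit genes (left) and 32 small subunit genes (right); red points share over 10% of their coding bases with another gene, the dashed line is the subunit's median, and only members with the extreme changes, the highest levels or a paralog are labelled. The medians are 0.17 and 0.19, and the widest bars belong to members with few counts, such as Rpl24 and Rpl36al.

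The large subunit's highest core gene outside the overlapping gene models was Rpl41, which encodes the smallest ribosomal protein. It stood at 880 and 579 against 993 and 1126 CPM (0.54 ± 0.23, the log2 fold change with its standard error, as below; adjusted p = 0.235 by edgeR's quasi-likelihood test). The fl/fl libraries were above both wt/wt libraries, but the gap between the wt/wt libraries was wider than that between wt/wt 1 and fl/fl 1.

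The P stalk, built of Rplp0, Rplp1 and Rplp2, reaches out of the large subunit and recruits the elongation factors. Rplp1 was at 983 and 857 against 1220 and 1208 CPM (0.40 ± 0.17, adjusted p = 0.219 by edgeR). Rplp0, the base of the stalk, was at 2069 and 2119 against 2624 and 2388 CPM (0.26 ± 0.17), and Rplp2 at 935 and 720 against 939 and 1072 CPM (0.28 ± 0.19). All 3 had both fl/fl libraries above both wt/wt libraries, in Rplp2 by a narrow margin, and 0 of 3 passed the test. Such a separation was also seen in 54.0% of the tested large subunit genes and in 28.1% of all tested genes. Rplp1 and Rplp0 had the highest counts of the large subunit per exonic length, at 2139 and 1386 CPM per kilobase.

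Rpl5 and Rpl11 bind the 5S ribosomal RNA, and when not built into ribosomes they inhibit the p53 ubiquitin ligase Mdm2. Rpl5 was the lowest tested gene of the large subunit that shared no coding bases with another gene, at 716 and 595 against 615 and 611 CPM (−0.10 ± 0.17, adjusted p = 0.805 by edgeR). Rpl11 was at 641 and 555 against 676 and 636 CPM (0.13 ± 0.17). The genotypes overlapped in both. Rpl10, which helps form the site for transfer RNA and joins late in assembly, was at 1583 and 1440 against 1515 and 1380 CPM (−0.06 ± 0.17), and Rpl3, which lies near the peptidyl transferase centre, at 898 and 834 against 855 and 825 CPM (−0.04 ± 0.16).

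Around the exit of the tunnel through which the new peptide leaves, 9 genes were listed, and 0 of 9 passed the test, with log2 fold changes from −0.02 to 0.40 and a median of 0.18. The smallest of them, Rpl38 and Rpl39, stood at 252 and 164 against 242 and 296 CPM, and at 184 and 124 against 175 and 163 CPM. In both genes wt/wt 2 was the lowest library and wt/wt 1 lay among or above the fl/fl libraries. Rpl26 (602 and 506 against 608 and 649 CPM) and Rpl17 (1126 and 926 against 1093 and 1212 CPM) had changes of 0.18 and 0.17. Rpl31, at 476 and 378 against 472 and 369 CPM, had the lowest change of the 9 at −0.02. Rpl22, an RNA-binding subunit with a paralog, was at 352 and 309 against 363 and 417 CPM (0.24 ± 0.17).

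In the small subunit the highest member was Rpsa, the core protein at the exit side of the messenger RNA that is also known as the laminin receptor. Rpsa was at 1536 and 1598 against 2361 and 2281 CPM, so that the genotypes were well apart and each pair close together (0.57 ± 0.16, a fold of 1.48, adjusted p = 0.0980 by edgeR). This was the smallest adjusted p of all members. By DESeq2 it was 0.0144 and without a low-count filter in edgeR it was 0.0402, while over all 17 alternative settings it ran from 0.0144 to 0.692, the highest with DESeq2 without wt/wt 1.

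Rps9, which helps form the entry channel of the messenger RNA, was at 2229 and 2091 against 2840 and 3113 CPM (0.46 ± 0.17, adjusted p = 0.169 by edgeR). Rps12, a protein of the subunit's head, was at 1026 and 771 against 1239 and 1329 CPM (0.52 ± 0.20, adjusted p = 0.183 by edgeR), and Rps20, also of the head, at 458 and 377 against 603 and 542 CPM (0.45 ± 0.18). Rps27l, the paralog of Rps27, was at 62.8 and 49.2 against 76.3 and 88.1 CPM (0.55 ± 0.19, adjusted p = 0.142 by edgeR). These 4 genes, with Rpsa, were the 5 small subunit genes with an unadjusted p under 0.05. In each, both fl/fl libraries were above both wt/wt libraries, as in 16 of 32 small subunit genes and 28.1% of all tested genes.

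Of the 13 listed head proteins 0 passed the test, with a median log2 fold change of 0.22 and 12 of 13 above 0. In the whole small subunit 30 of 32 genes were above 0, and 51.9% of all tested genes. Rps28 was at 209 and 127 against 220 and 230 CPM, and Rps15, with Rps3a1 the member with the highest counts per exonic length in the small subunit (1188 and 1325 CPM per kilobase), at 723 and 661 against 767 and 843 CPM. Rps3a1 itself was at 1216 and 1175 against 1284 and 1501 CPM (0.22 ± 0.17). Rps3, a head protein at the entry channel with a known role in DNA repair, was nearly level, at 1426 and 1209 against 1361 and 1367 CPM (0.05 ± 0.17).

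At the low end of the small subunit were Rps10 (given with the overlapped genes below), Rps27, Rps7 and Rps14. Rps27 was at 426 and 307 against 355 and 358 CPM (−0.04 ± 0.20), Rps7 at 882 and 753 against 823 and 819 CPM (0.01 ± 0.17) and Rps14 at 1718 and 1412 against 1486 and 1754 CPM (0.05 ± 0.19). In Rps27 and Rps7 both fl/fl libraries fell between the wt/wt libraries. Rps7, Rps14, Rps19, Rps24 and Rps26, whose proteins are needed for the maturation of the small subunit's RNA and several of which are mutated in Diamond-Blackfan anaemia, had changes from 0.01 to 0.26, and 0 of these 5 passed. Rps6, the substrate of the S6 kinases downstream of mTORC1, was at 771 and 639 against 870 and 743 CPM (0.19 ± 0.18). Rps27a, which is made as a fusion with ubiquitin, was at 1075 and 773 against 1143 and 1345 CPM (0.43 ± 0.21, adjusted p = 0.299 by edgeR).

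**Figure D3:**
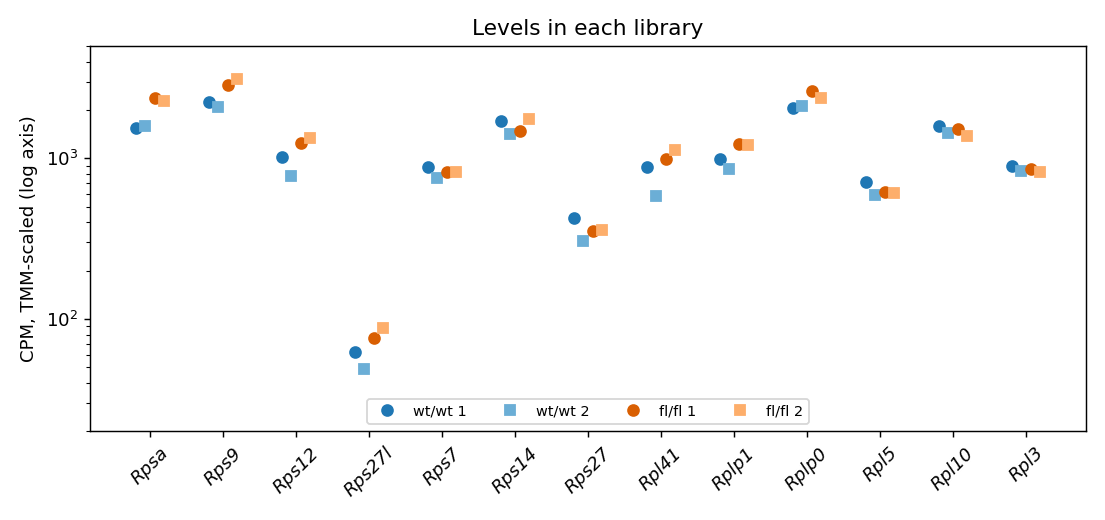
Level of 13 members in each library, in TMM-scaled CPM on a log axis; circles are the libraries numbered 1, squares those numbered 2, blue wt/wt and orange fl/fl. The fl/fl points of Rpsa (2361 and 2281 CPM) lie above its wt/wt points (1536 and 1598 CPM), while for Rps7, Rps27 and Rpl5 the fl/fl points lie between the wt/wt points.

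The members' median difference between the wt/wt libraries was larger than that between the genotypes. Over the 82 tested members the median log2 ratio of wt/wt 1 to wt/wt 2 was 0.28 (0.27 large, 0.29 small), with 71 of 82 higher in wt/wt 1, where the median over all tested genes was 0.00. Between fl/fl 1 and fl/fl 2 the members' median was −0.01, with 39 higher and 43 lower. Among the 70 core genes without paralog status or overlap, wt/wt 2 was the lowest library in 57, wt/wt 1 in 9, fl/fl 2 in 4 and fl/fl 1 in 0. The highest library was fl/fl 2 in 33, fl/fl 1 in 24, wt/wt 1 in 13 and wt/wt 2 in 0. Most of these genes thus shared their lowest library, while the highest varied.

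The difference between the wt/wt libraries was larger in shorter members. For the 9 members with up to 300 coding bases, such as Rpl41, Rpl38 and Rps28, the median log2 ratio of wt/wt 1 to wt/wt 2 was 0.57. It was 0.34 for 29 members of over 300 to 450 bases, 0.28 for 18 members up to 600 bases, 0.07 for 21 members up to 900 bases and −0.03 for 5 longer ones. Across the 70 core genes, which share libraries and are not independent, the ratio had a Pearson correlation of −0.772 and a Spearman correlation of −0.750 with log2 coding length. For fl/fl 1 over fl/fl 2 these were 0.215 and 0.198, and for fl/fl over wt/wt −0.294 and −0.265. In 223 other genes with up to 300 coding bases the ratio of wt/wt 1 to wt/wt 2 had a median of 0.11, against 0.57 in the members.

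Coding length moved with the difference between genotypes in other genes as well. Members with up to 300 coding bases had a median log2 fold change of 0.32 and the 223 other genes of that length 0.29. From 300 to 450 bases it was 0.25 in 29 members and 0.25 in 564 other genes, from 450 to 600 bases 0.12 in 18 members and 0.14 in 698 others, and from 600 to 900 bases 0.16 in 21 members and 0.13 in 1620 others. From 900 to 1500 bases it was 0.16 in 5 members and 0.05 in 3260 others, the widest gap of these bands. Among other genes with more than 3000 coding bases (1568 genes) it was −0.14. Measured from the trend of all tested genes on coding length, the members' medians were 0.016 in the large and 0.020 in the small subunit, in place of 0.17 and 0.19. Measured from the trend on exonic length they were 0.087 and 0.12.

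**Figure D4:**
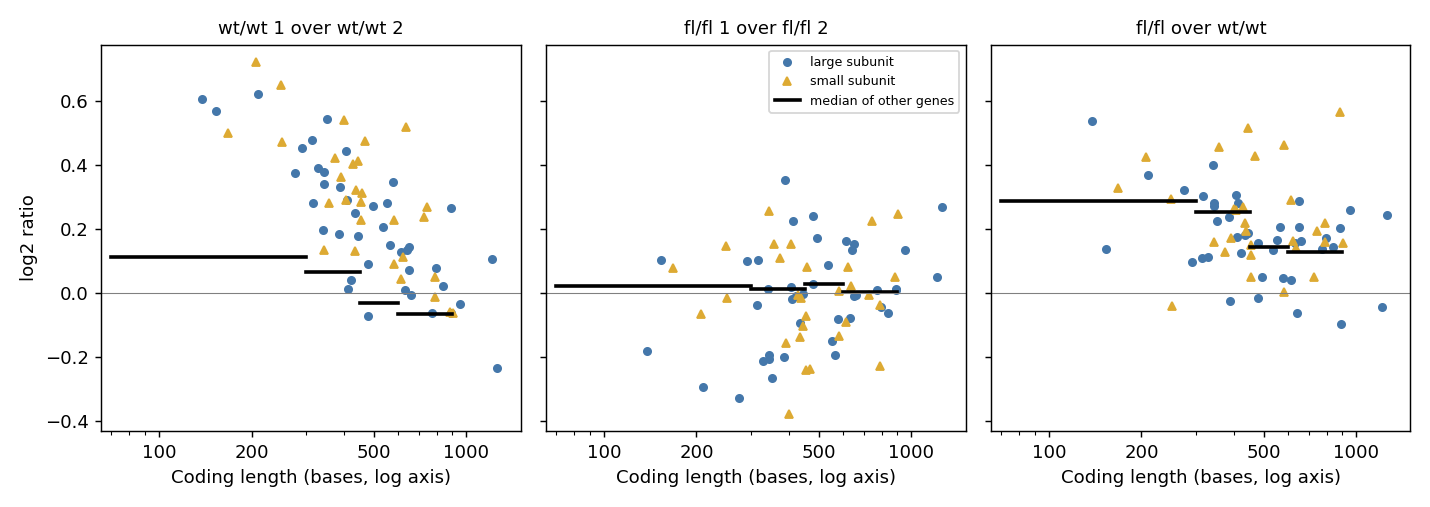
Log2 ratio against coding length (bases, log axis) for the 70 core genes of both subunits, between the wt/wt libraries (left), between the fl/fl libraries (middle) and between genotypes (right). Black lines are medians of all other tested genes in the same length band, drawn only for the bands up to 900 bases. On the left the shortest members lie highest, with a median of 0.57 up to 300 bases against 0.11 in other genes, and on the right members and other genes have medians of 0.32 and 0.29 there.

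A part of the members had far lower counts than the rest, and these shared exons with another gene model. In 9 members over 10% of the coding bases also belonged to an exon of another gene in the annotation, and their mean level had a median of 13.3 CPM (0.978 to 155 CPM). The 70 core genes without such overlap had a median of 736 CPM (115 to 2568 CPM). The 5 members with over 50% shared lay between 0.978 and 13.3 CPM. These were Rpl13a (97.5% shared with the protein-coding model Gm45713), Rpl36al (95.3% with Gm49383), Rps10 (89.9% with RPS10-NUDT3), Rpl24 (83.4% with Gm28037) and Rpl23a (55.3% with Tlcd1 on the opposite strand). The rows of Gm45713, Gm49383, RPS10-NUDT3 and Gm28037 held 0 counts in all 4 libraries. Rps10 had 24 and 50 against 24 and 24 counts, while its pseudogene Rps10-ps2 had 173 and 213 against 156 and 173.

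Such rows held the extremes of the large subunit. Rpl36al was at 1.66 and 0.921 against 1.28 and 3.60 CPM (0.92 ± 0.68), Rpl13a at 8.49 and 6.85 against 10.8 and 15.6 CPM (0.78 ± 0.30, adjusted p = 0.184 by edgeR), and Rpl24 at 1.71 and 0.810 against 1.28 and 0.114 CPM (−0.84 ± 1.05). Rpl13a, known for its part in silencing inflammatory mRNAs in monocytes, had both fl/fl libraries above both wt/wt libraries. Rpl35, with 28.5% of its coding bases shared with Wdr38 on the opposite strand, was at 38.1 and 21.4 against 40.3 and 38.3 CPM (0.40 ± 0.28). How reads that overlap 2 gene models were counted is not given in the sources used here, so the levels of these 9 genes are uncertain. Without them the medians were 0.17 (large) and 0.21 (small). Rows for pseudogenes of the members numbered 294, of which 170 had any count; together they held from 0.0226% to 0.0278% of a library's counts, and of the 58 tested 0 passed.

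**Figure D5:**
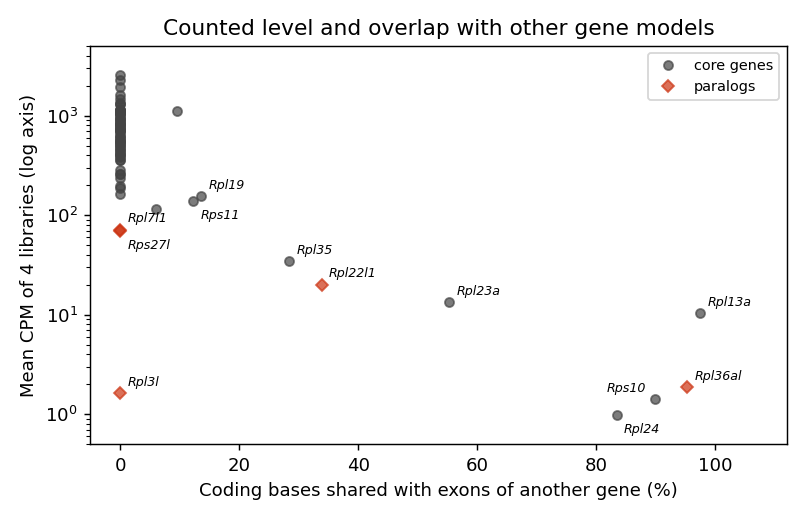
Mean level over the 4 libraries (CPM, log axis) of each tested member against the share of its coding bases that also lie in an exon of another gene (%). The 5 members with over 50% shared lie between 0.978 and 13.3 CPM, below every core gene with up to 10% shared.

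Paralogs are second copies, and the protein of some of them can take the place of the core protein in the ribosome. Rps27l made up 12.8% (95% Wilson interval 12.2 to 13.5) and 13.8% (13.1 to 14.5) of the counts of the pair with Rps27 in wt/wt, and 17.7% (16.8 to 18.6) and 19.7% (18.9 to 20.6) in fl/fl. Both fl/fl libraries were above both wt/wt libraries; the intervals cover counting error only, and the shift was not tested by itself. Rpl22l1 made up 5.50% and 4.93% against 5.61% and 5.02% of its pair with Rpl22, at 20.5 and 16.1 against 21.5 and 22.0 CPM. Rpl7l1 was at 66.8 and 74.4 against 76.3 and 68.9 CPM (0.04 ± 0.16) beside Rpl7 at 1021 and 1005 against 1095 and 1143 CPM. Rpl3l, known from heart and skeletal muscle, was at 2.34 and 0.921 against 1.51 and 1.77 CPM. Reads from near-identical copies may have been divided between the rows, so low levels of a paralog are uncertain.

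The members on the X chromosome are given apart, since Xist was counted in fl/fl 2 and not in the other libraries. Rps4x was at 1069 and 1078 against 1185 and 1214 CPM (0.16 ± 0.16), and Rpl36a at 182 and 150 against 212 and 198 CPM (0.30 ± 0.17). In Rps4x, Rpl36a, Rpl39 and Rpl10 the fl/fl libraries differed by log2 ratios of −0.04, 0.10, 0.10 and 0.13. Of these 4 genes 0 passed the test.

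Among ribosomal proteins with other symbols, Fau, which carries the small subunit protein of a ubiquitin-like fusion, was at 1372 and 1160 against 1249 and 1456 CPM, and Rack1, the scaffold on the subunit's head, at 1163 and 1144 against 1130 and 1149 CPM. Neither passed the test. Among 18 elongation factors and other genes with TOP mRNAs 0 passed, with a median of 0.05; the largest was Naca, of the complex at the tunnel exit, at 384 and 378 against 478 and 518 CPM (0.39 ± 0.16, adjusted p = 0.207 by edgeR). Among 32 initiation factors 0 passed, with a median of 0.05 and Eif5 at 896 and 576 against 426 and 457 CPM (−0.74 ± 0.23, adjusted p = 0.122 by edgeR). The 13 members with the TOP pattern at the listed start had a median of 0.19, and the 49 tested members matched without it also 0.19.

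Over all lists of translation and ribosome production genes, 6 of 214 tested genes (2.80%) passed the threshold, a share below the 5.85% of all tested genes. Myc, the transcription factor that drives genes of ribosome production and growth, fell from 29.8 and 29.4 CPM in wt/wt to 11.4 and 8.10 CPM in fl/fl (−1.61 ± 0.24, adjusted p = 0.0193 by edgeR), 1 of 10 tested genes of the Myc network. Tcof1, whose protein treacle supports transcription of ribosomal RNA, fell from 226 and 146 to 79.8 and 87.0 CPM (−1.16 ± 0.23, adjusted p = 0.0382 by edgeR), 1 of 68 assembly factors, whose median was −0.10. Of 15 RNA polymerase I genes 0 passed, with a median of −0.06. Cdkn1a, the p53 target p21, fell from 686 and 596 to 280 and 298 CPM (−1.15 ± 0.17, adjusted p = 0.0191 by edgeR), 1 of 11 genes of the nucleolar stress response.

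Of 33 tested genes of mTORC1 and its TOP control, 2 rose and 1 fell, and the median was −0.00. Lamtor4 rose from 104 and 107 to 181 and 185 CPM (0.80 ± 0.15, adjusted p = 0.0312 by edgeR) and Lamtor2 from 67.4 and 75.6 to 121 and 124 CPM (0.78 ± 0.15, adjusted p = 0.0380 by edgeR); both encode parts of the Ragulator, which holds mTORC1 at the lysosome. Castor1, the arginine sensor upstream of mTORC1, fell from 31.7 and 25.2 to 3.67 and 8.85 CPM (−2.18 ± 0.41, adjusted p = 0.0322 by edgeR). Larp1, the binder of the TOP motif, was at 148 and 125 against 147 and 133 CPM. Of 9 tested S6 kinase genes and 19 genes of ribosome quality control 0 passed, with medians of 0.00 and −0.13. None of the 6 calls held without wt/wt 1 or without wt/wt 2, when 1 library stands for the wild type and edgeR called 0 genes in all, and that of Lamtor2 was also lost without fl/fl 1 (adjusted p = 0.0583 by edgeR).

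Markers of cell types moved with the genotype beside all of these values, and their part in the ribosomal protein levels was not tested. Of 11 tested granulocyte precursor markers 9 were higher in fl/fl, with a summed level of 120 and 128 against 1833 and 659 CPM. Of 12 mature neutrophil markers 10 were higher, and of 11 markers of proliferating cells 7 were higher, with sums of 329 and 226 against 1140 and 495 CPM. Of 7 tested Kupffer cell and macrophage markers 3 were lower, with sums of 1251 and 1264 against 538 and 403 CPM. Of 8 classical monocyte markers 1 was higher and 1 lower, and of 6 tested dendritic cell markers 1 was lower. Of the tested B cell, basophil, erythroid, hepatocyte, endothelial and stellate cell markers 0 passed, and none of these lists summed to more than 95.2 CPM in a library. T and NK cell markers, 2 of 4 tested ones higher (Gzma and Nkg7), summed to at most 30.8 CPM, in fl/fl 1. Nkg7, at 20.3 CPM in that library, was also on the granulocyte precursor list and is counted in both. Siglech, Car1 and Lrat were at 0 in every library.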

How the data were processed

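Gene counts of 4 poly(A) RNA-seq libraries, as deposited by the authors, were used without change; per the submitters' processing notes the reads passed through FastQC 0.11.5, Trimmomatic 0.33 and STAR 2.5.0 with GRCm38. Which tool counted the reads, with what strand setting and gene models, is not given in the sources used here. Of 55487 rows, 260 had no symbol in GENCODE M21. Genes were tested with edgeR 4.0.16 (R 4.3.3; filterByExpr with a minimum count of 10, TMM, quasi-likelihood F test, Benjamini-Hochberg over all 13496 tested genes, threshold 0.05), fl/fl against wt/wt, all 4 libraries, without covariates; limma 3.58.1 (voom) and DESeq2 1.42.0 were alternatives. The biological coefficient of variation was 25.5%. The test was checked on simulated data. CPM used TMM-scaled library sizes. The length trend was a lowess curve (span 0.3).

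The members and lists were chosen with earlier results of these data known. The text gives all members by counts and ranges, and values for the 4 highest and 4 lowest log2 fold changes and the 2 highest levels per exonic length in each subunit, paralog pairs, members of listed roles, and up to 4 genes of each list with the smallest p. Larp1, Rps6, the check genes and the sequences shown are outside this rule and were chosen after their values were seen. Promoter sequences are from RefSeq (GRCm38.p6). Values of some list genes and members are not reported here.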

Additional observations from a re-analysis of the deposited data

How the results depend on the processing

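With 2 libraries a genotype, changes under about 1 on the log2 scale were often missed in simulated data, and members with few counts (Rpl24, Rpl36al, Rps10, Rpl3l) have wide errors. The number of large subunit genes past the threshold was 0 in every alternative run. For the small subunit it was 1, Rpsa, with no low-count filter, with DESeq2 and, in an alternative added after seeing the data, with DESeq2 without fl/fl 2. The medians stayed above 0 in every alternative; leaving out 1 library at a time they ran from 0.105 to 0.252 (large) and from 0.100 to 0.298 (small), and as residuals from the coding-length trend, also added later, they were 0.0157 and 0.0201, where the construction removes what genes of that length share. With the replicate number as a block, which the labels do not say pairs the mice (correlation of same-numbered deviations 0.0215), 0 members passed, the medians were 0.178 and 0.199, and 12 pathway genes passed in place of 6. DESeq2 called 14 pathway genes, and leaving out 1 library at a time gave 0 to 11.

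The sign of the log2 fold change of 9 named members, none of them called in any of these settings, changed with the setting or the libraries used; the cause was not tested. Rps7 had −0.0112 with RLE factors, −0.00567 with library size only, −0.0210 with upper quartile, −0.00644 with no filter, −0.0158 with a CPM of at least 5 and −0.0111 with DESeq2, and Rpl3l had −0.00462 with upper quartile and −0.00124 with DESeq2. Leaving out 1 library at a time, the log2 fold change ran from −0.168 to 0.0101 in Rpl10, −3.43 to 0.0398 in Rpl24, −0.116 to 0.402 in Rpl39, −0.504 to 0.782 in Rpl3l, −0.0835 to 0.123 in Rpl7l1, −0.459 to 0.361 in Rps10, −0.0822 to 0.150 in Rps14, −0.254 to 0.167 in Rps27 and −0.102 to 0.0765 in Rps7.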
